A study of Mus musculus with 24 samples.

Results

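The comparison described here is that of wild-type primary mouse dermal fibroblasts treated with TWEAK at 100 ng/ml for 6 h with untreated wild-type fibroblasts, 4 libraries against 4, chosen by genotype and treatment label from a series of 24 libraries. The series used skin fibroblasts at passage 5, grown in DMEM with 10% serum, from wild-type mice and from littermates that lack NIK (labelled NIK knockout) or carry a mutant form of it (labelled NIK X mut), each untreated or given TWEAK for 6 or 24 h. The wild-type cells carry no transgene or engineered allele according to the labels. RNA was measured with a bulk version of MARS-seq, a method that tags each transcript at its 3′ end with a unique molecular identifier (UMI), so that each count stands for 1 captured molecule. The titles and treatment labels of the treated libraries say 6 h, while their library names say 3 h, and the label of 6 h is used throughout. Untreated cells are labelled 0 h and no untreated library was kept in culture to a stated 6 h, so TWEAK and time in culture cannot be told apart. The labels do not say whether each replicate number stands for a separate mouse. The p-values measure a spread between libraries that is estimated over all 24, unless a fit of fewer is named. They leave the replicate number out unless a block is named.

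TWEAK is a ligand of the TNF family that binds the receptor Fn14, encoded by Tnfrsf12a. In unstimulated cells a complex of TRAF3, TRAF2 and the cIAP ubiquitin ligases keeps the kinase NIK at a low level, and the engaged receptor draws this complex away, so that NIK accumulates. NIK activates the kinase IKK1, which starts the processing of the NF-kB precursor p100 to p52, the partner of RelB in the non-canonical pathway, while IKK2 drives the degradation of IkB proteins and the release of RelA and p50 in the canonical pathway. In dermal fibroblasts NF-kB is known for switching on chemokines, cytokines and adhesion molecules. The title of the series names the interplay of IKK1 and IKK2 downstream of NIK as its subject.

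NF-kB dimers bind short sites with a GG at one end and CC at the other, and the upstream sequence of 6 genes that rose, 3 of the NF-kB core and 3 chemokines, is shown to let such letters be seen in place. Each line gives the 250 bases upstream of the RefSeq transcription start in the GRCm38.p6 assembly, read 5′ to 3′ on the strand of the gene, with matches to the pattern GGNNNTTCC on either strand in capitals.
Nfkbie: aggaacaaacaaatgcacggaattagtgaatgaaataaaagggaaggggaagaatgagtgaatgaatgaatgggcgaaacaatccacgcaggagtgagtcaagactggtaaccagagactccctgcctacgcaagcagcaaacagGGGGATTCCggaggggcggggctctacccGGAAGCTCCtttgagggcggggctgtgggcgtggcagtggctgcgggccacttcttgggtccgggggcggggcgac
Nfkb2: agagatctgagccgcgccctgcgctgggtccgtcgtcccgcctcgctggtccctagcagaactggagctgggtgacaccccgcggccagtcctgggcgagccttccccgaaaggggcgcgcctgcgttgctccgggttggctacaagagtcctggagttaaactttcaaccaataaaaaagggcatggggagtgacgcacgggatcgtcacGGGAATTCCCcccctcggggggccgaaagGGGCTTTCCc
Nfkbia: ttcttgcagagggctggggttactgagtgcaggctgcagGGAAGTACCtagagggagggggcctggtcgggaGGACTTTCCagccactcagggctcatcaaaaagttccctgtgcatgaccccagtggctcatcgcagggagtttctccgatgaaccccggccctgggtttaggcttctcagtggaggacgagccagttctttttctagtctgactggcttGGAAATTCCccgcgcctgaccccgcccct
Cxcl10: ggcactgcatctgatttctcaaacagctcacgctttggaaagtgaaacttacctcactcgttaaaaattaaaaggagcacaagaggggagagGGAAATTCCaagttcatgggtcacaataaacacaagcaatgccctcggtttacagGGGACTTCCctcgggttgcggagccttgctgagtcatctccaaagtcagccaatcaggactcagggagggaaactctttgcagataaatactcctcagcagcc
Ccl20: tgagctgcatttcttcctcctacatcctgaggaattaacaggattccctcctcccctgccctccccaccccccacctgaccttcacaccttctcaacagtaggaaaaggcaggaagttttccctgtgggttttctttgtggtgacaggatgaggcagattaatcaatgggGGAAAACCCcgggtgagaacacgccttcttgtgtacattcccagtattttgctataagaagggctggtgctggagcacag
Cxcl3: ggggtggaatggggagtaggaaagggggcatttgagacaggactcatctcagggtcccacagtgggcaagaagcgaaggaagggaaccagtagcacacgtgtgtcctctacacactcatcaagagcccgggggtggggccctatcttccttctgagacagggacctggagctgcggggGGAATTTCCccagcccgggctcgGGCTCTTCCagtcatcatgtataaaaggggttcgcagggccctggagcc
These windows lie at chr17:45555450-45555699 on the plus strand for Nfkbie, chr19:46304487-46304736 on the plus strand for Nfkb2, chr12:55492648-55492897 on the minus strand for Nfkbia, chr5:92348890-92349139 on the minus strand for Cxcl10, chr1:83116516-83116765 on the plus strand for Ccl20 and chr5:90785851-90786100 on the plus strand for Cxcl3. The 6 were picked because they hold the pattern, so its presence in them is a description. RefSeq windows of 300 bases (250 before and 50 after the start) were searched over all genes. A gene may have none or several, and 369 of the 493 genes that rose had at least 1. The pattern stood in 25.3% of the 494 windows of genes that rose, in 17.0% of the 259 windows of genes that fell and in 21.6% of the 11334 windows of all tested genes. The AP-1 pattern TGANTCA stood in 9.72%, 3.86% and 4.98% of the same windows, and the E-box CACGTG in 10.9%, 12% and 10.2%. A match is a run of letters in this window and says nothing of binding.

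The 8 libraries held 889863 to 3069312 UMIs, with 1575261 to 3069312 in the untreated and 889863 to 2108732 in the 6 h group, and 12333 to 13280 genes were detected in each. Levels are given as CPM, the count of a gene scaled to a fixed library total, after TMM normalisation, with means ± SD over 4 libraries, and changes as log2 ratios of 6 h over untreated ± the standard error from edgeR's quasi-likelihood fit of all 24 libraries. Of 11337 genes tested, 727 (6.41%) passed an adjusted p of 0.05, of which 493 (4.35%) were higher and 234 (2.06%) lower after TWEAK. The median log2 change was -0.01 over all tested genes, 1.23 over the genes that rose and -0.91 over those that fell. Among the genes that rose, 311 changed by at least 1 on the log2 scale, 117 by at least 2 and 62 by at least 3, whereas 100 of the falling genes changed by at least 1 and 18 by at least 2. All 6 h libraries lay above all untreated ones for 320 of the rising genes (4.28% of all tested genes did so) and below them for 177 of the falling genes (3.4% of all). The genes that rose held 2.49% ± 0.115 of all UMIs in untreated libraries and 6.04% ± 0.991 at 6 h (SD, n = 4), and those that fell held 1.85% ± 0.115 and 1.02% ± 0.125. In bulk RNA, a change in the number of cells of a kind and a change in RNA per cell cannot be told apart. Without untreated replicate 2, 6 h replicate 3 or 6 h replicate 4 the number of genes past the test was 471, 428 and 458. With the replicate number as a block it was 1314 (758 higher and 556 lower) in the fit of 24 libraries and 660 (414 and 246) in a fit of the 8 libraries compared. Without the block, the 12 wild-type libraries alone gave 335 and the 8 alone 223. Counts given below with the block are from the fit of 24 libraries. They stand beside its 758 higher and 556 lower of all 11337 genes, and not beside the shares of the main fit. The gene lists below were chosen with earlier results of these data known.

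**Figure D1:**
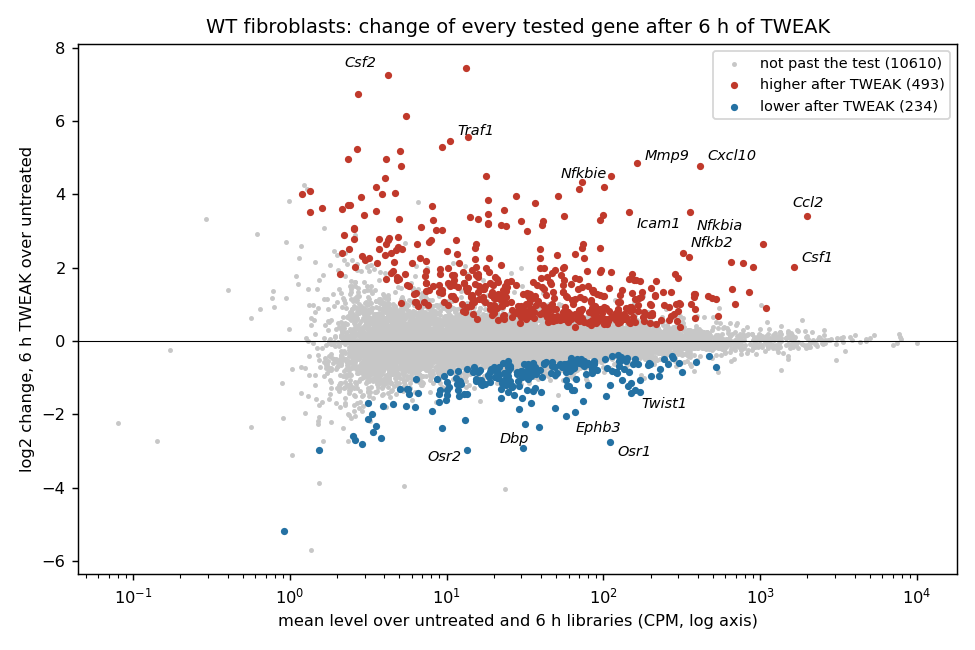
Each point is 1 of 11337 tested genes, with its mean level over the untreated and 6 h libraries in CPM on a log axis and its log2 change after 6 h of TWEAK. The 493 genes that rose (red) reach larger changes than the 234 that fell (blue), and 10610 genes (grey) did not pass the test.

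The 8 libraries carried the markers of dermal fibroblasts. Of 20 fibroblast markers 19 were in the table, and they summed to 20375 to 25202 CPM in the untreated and 19427 to 24206 CPM in the 6 h libraries. Col1a2, Vim, Col3a1 and Thy1 were among the abundant ones. Fap and Lum were low, at means of 2.01 and 3.51 CPM over the 8 libraries, and Dpp4 was not in the table. Markers of other skin cells were near the floor: 3 keratinocyte markers summed to 8.06 to 23.7 CPM over the 8 libraries, 4 endothelial markers to 7.62 to 19.0 CPM, 3 macrophage and leukocyte markers to 8.99 to 14.4 CPM and 4 adipocyte markers to 5.27 to 32.8 CPM. The defining markers Krt5, Epcam, Pecam1, Ptprc and Adipoq are not among the 13479 genes of the table. The 6 melanocyte and Schwann cell markers in the table summed to 12.4 to 27.7 CPM. Skeletal muscle and pericyte markers summed to 191.6 to 675.7 CPM.

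Most genes of the NF-kB core rose. Of 10 tested NF-kB subunits and IkB inhibitors, 8 rose and none fell, with a median log2 change of 1.43 against -0.01 for all genes. The count stayed at 8 with any 1 of the 8 libraries left out. Nfkbie, which encodes IkB-epsilon, an inhibitor that holds NF-kB in the cytoplasm (chr17:45555703-45563169, GRCm38, plus strand), was at 6.85, 5.47, 10.2 and 7.07 CPM in untreated replicates 1 to 4 and at 122, 188, 108 and 108 CPM in the 6 h libraries. Every treated library was far above every untreated one, and the log2 change was 4.16 ± 0.24 (adjusted p 1.53e-10). Nfkbia, which encodes IkB-alpha, the inhibitor degraded and resynthesised in the canonical pathway (chr12:55489410-55492647, minus strand), was at 76.1, 44.7, 50.1 and 57.9 CPM untreated and 663, 512, 691 and 754 CPM after TWEAK, a log2 change of 3.52 ± 0.24 (adjusted p 2.22e-09). The groups were far apart, and 6 h replicate 2 was the lowest of the treated libraries.

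Both subunits of the non-canonical arm rose, as did Nfkb1 and Rela of the canonical arm. Nfkb2, the gene of p100 and p52 (chr19:46304320-46312385, plus strand), stood at 123, 94.3, 95.1 and 95.2 CPM untreated and at 625, 502, 499.9 and 542 CPM at 6 h, a 5.31-fold rise (log2 2.41 ± 0.14, adjusted p 1.53e-10). Relb, its partner, went from 20.6, 21.9, 21.2 and 22.5 CPM to 123, 130.4, 117 and 129.6 CPM, a 5.81-fold rise. The 4 libraries of each group lay close together for both genes, and the change by replicate pair ran from 2.34 to 2.50 for Nfkb2 and from 2.42 to 2.53 for Relb. Nfkb1, the gene of p105 and p50, rose from 76.04 ± 9.53 to 181 ± 41.4 CPM (log2 1.25 ± 0.14) and Rela from 148 ± 25.8 to 241 ± 4.56 CPM (log2 0.70 ± 0.15). Neither gene had overlapping groups. Rel, the gene of c-Rel, was at 5.15 ± 0.895 and 5.54 ± 1.496 CPM, and its log2 difference of 0.10 ± 0.30 did not pass the test (adjusted p 0.915). Bcl3 and Nfkbib, 2 further members of the IkB family, rose by 1.60 and 0.90 on the log2 scale, while Nfkbiz had a difference of -0.39 (adjusted p 0.690).

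**Figure D2:**
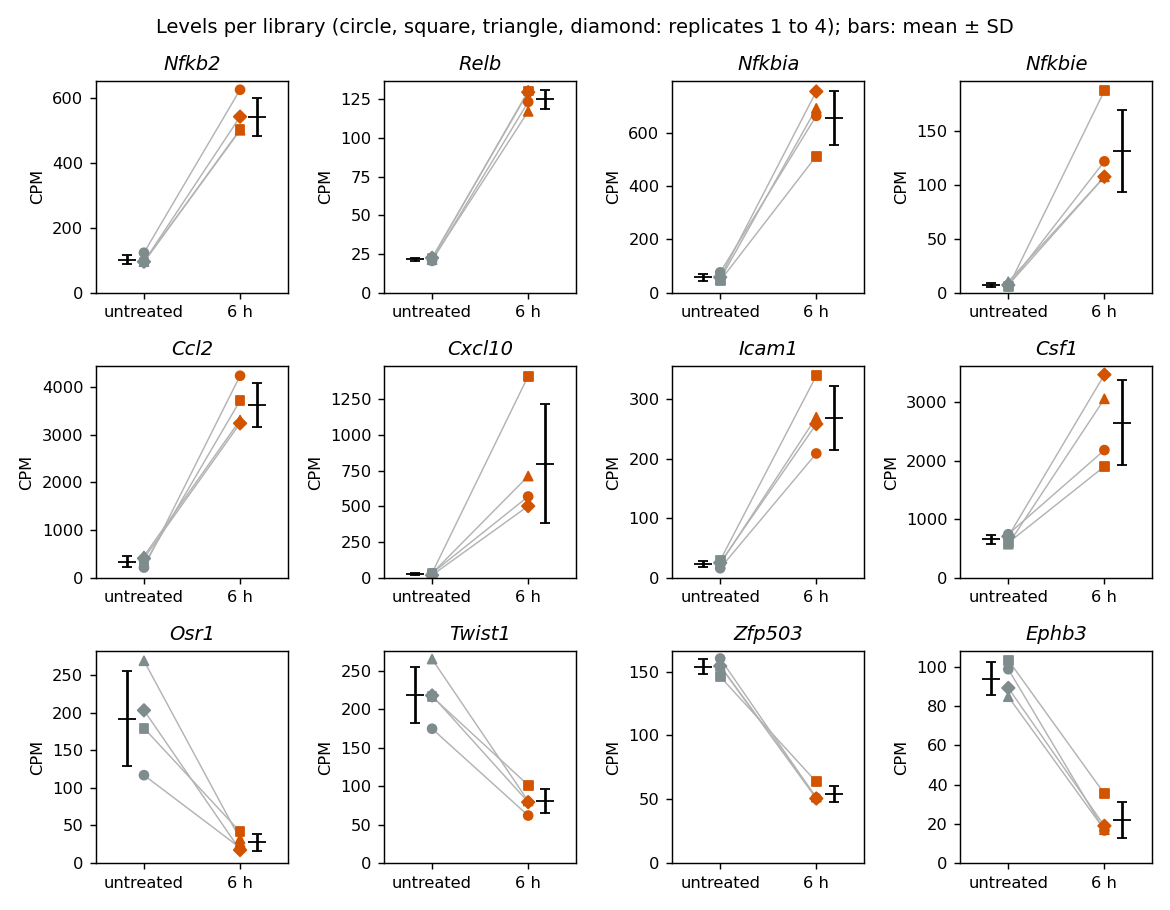
CPM in each untreated (grey) and 6 h (orange) library for 12 genes, with replicates of the same number joined and mean ± SD beside them (n = 4). In the upper 8 panels every treated library lies above every untreated one, for example 499.9 to 624.9 against 94.3 to 122.9 CPM for Nfkb2, and in the lower 4 panels every treated library lies below.

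Map3k14 rose, and so did genes of the complex that holds NIK in check. Of 13 tested members of the NIK, TRAF, cIAP and IKK group, 6 rose and none fell (median log2 change 0.75). Map3k14, the gene of NIK (chr11:103219762-103267472, minus strand), was at 15.2, 25.7, 22.5 and 21.9 CPM untreated and 64.03, 38.7, 55.5 and 39.0 CPM at 6 h. The groups did not overlap, and the log2 change was 1.18 ± 0.24 (adjusted p 0.00369), with 6 h replicate 1 the highest. Birc3, which encodes the ubiquitin ligase cIAP2, rose 5.70-fold from 11.6 ± 1.92 to 67.1 ± 9.84 CPM, Traf3 rose by 1.19 ± 0.17 and Traf2 by 0.94 ± 0.18 on the log2 scale. Birc2, which encodes cIAP1, and Tank completed the 6. Chuk, the gene of IKK1, was at 33.9, 37.0, 24.6 and 27.01 CPM untreated and 32.02, 29.1, 32.5 and 43.01 CPM at 6 h, with overlapping groups and a log2 difference of 0.15 ± 0.21 (adjusted p 0.782). Ikbkb, the gene of IKK2, was at 27.8 ± 2.01 and 38.8 ± 5.32 CPM, and its log2 difference of 0.50 ± 0.16 missed the threshold (adjusted p 0.0752). All treated libraries were nevertheless above all untreated ones, and the adjusted p was 0.0417 with the replicate number as a block in 24 libraries and 0.144 with the block in the 8 libraries compared.

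Feedback inhibitors outside the IkB family moved in part. Of 11 tested, 3 rose and none fell, and the median log2 change of 0.03 was close to that of all genes. Tnfaip3, which encodes A20, an enzyme that edits ubiquitin chains on NF-kB signalling proteins (chr10:19000910-19015657, minus strand), was at 6.85, 4.18, 4.67 and 7.07 CPM untreated and 34.4, 51.6, 62.3 and 67.7 CPM at 6 h, with a log2 change of 3.29 ± 0.30 (adjusted p 1.37e-07). Tnip1, a partner of A20, rose 3.53-fold from 67.3 ± 4.53 to 236 ± 39.4 CPM, and Zc3h12a, which encodes an RNase that degrades cytokine mRNAs, rose 2.18-fold.

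Receptors and adaptors of the TNF and innate pathways gave a mixed picture. Tnfrsf12a, the gene of the TWEAK receptor, was at 625, 211, 289.6 and 401 CPM untreated and 566, 252, 929 and 1123 CPM at 6 h. The groups overlapped, with replicate 1 high in both and 6 h replicates 3 and 4 highest, and the log2 difference of 0.91 ± 0.35 did not pass the test (adjusted p 0.136), whereas with the replicate number as a block it did in the fit of 24 libraries (adjusted p 0.0256) and did not in that of the 8 libraries compared (adjusted p 0.112). It also passed without untreated replicate 1 or without 6 h replicate 2 (adjusted p 0.0135 for the latter). Of 18 tested TNF-family receptors and ligands 4 rose and none fell (2 without any 1 of untreated replicates 2, 3 and 4). With 1 library left out the falls were 1 without untreated replicate 3 and 2 without 6 h replicate 2, and with the block 6 rose and 2 fell. Cd40, a receptor that also signals through NIK, rose 3.23-fold from 32.5 ± 13.8 to 108 ± 37.6 CPM, and Tnfrsf1b, which encodes TNF receptor 2, rose 2.25-fold. The death receptor gene Fas rose by 1.27 ± 0.38 on the log2 scale, a call lost without any 1 of untreated replicates 2, 3 and 4 and 6 h replicates 2 and 3 (adjusted p 0.0611 to 0.1498). Among 28 innate receptors and adaptors 5 rose and none fell (3 without any 1 of untreated replicate 1 and 6 h replicate 3). Traf1, an adaptor known as an NF-kB target (chr2:34941750-34961772, minus strand), was at 0, 0.322, 0.849 and 0.643 CPM untreated and 16.6, 17.7, 24.4 and 24.1 CPM after TWEAK, a log2 change of 5.47 ± 0.46 (adjusted p 4.40e-08). It was near the detection floor in every untreated library and present in every treated one. Ripk2, the kinase downstream of NOD receptors, rose 3.12-fold, and Tlr2, a receptor for bacterial lipoproteins, rose 3.67-fold.

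Of 9 tested CC and CX3C chemokines 5 rose, and of 9 tested CXC chemokines 6 rose, with none lower in either list (1 CXC chemokine fell with the block) and median log2 changes of 2.15 and 3.42. Ccl2, which attracts monocytes (chr11:82035571-82037453, plus strand), was at 214, 276, 457 and 407 CPM untreated and reached 4239, 3717, 3308 and 3241 CPM at 6 h, a 10.7-fold rise (log2 3.42 ± 0.20, adjusted p 1.53e-10). Its gain in CPM was carried by every pair, although untreated replicates 3 and 4 started higher and ended lower than replicates 1 and 2. Its neighbour Ccl7 (chr11:82045712-82047525) rose 4.45-fold, from 171, 276, 308 and 201 to 1506, 1115, 960.5 and 685 CPM. Ccl5, which attracts T cells, rose 20.4-fold from 7.02 ± 1.61 to 139 ± 66.3 CPM, and Ccl20, the ligand of CCR6, rose 15.6-fold, its 6 h levels of 55.7, 30.1, 63.7 and 56.8 CPM all above the untreated levels of 0.761, 1.29, 6.37 and 5.79 CPM.

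Of the CXC chemokines, Cxcl10, a ligand of CXCR3 (chr5:92346638-92348889, minus strand), was at 31.97, 33.1, 30.99 and 18.01 CPM untreated and 569, 1412, 712 and 502 CPM at 6 h, a log2 change of 4.79 ± 0.37 (adjusted p 1.22e-08). Replicate 2 gave the highest treated level, and untreated replicate 4 was the lowest. Cxcl16, which exists as a membrane-bound and a shed form, rose 10.7-fold, with all 4 pairs between 3.23 and 3.40 on the log2 scale. The neutrophil-attracting Cxcl1 rose 3.35-fold from 6.67 ± 4.29 to 20.7 ± 6.96 CPM. Cxcl3 had 3 UMIs over the untreated and 49 over the 6 h libraries, a ratio of 24.98 (exact 95% interval 8.06 to 125.3, counting error only). Cxcl12, the homeostatic chemokine of stroma, was at 362 and 349 CPM and did not pass the test (adjusted p 0.977).

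Of 11 tested interleukins and colony-stimulating factors 4 rose and none fell, with all 11 log2 values above 0 and a median of 1.22. Csf1, the growth factor of macrophages (chr3:107741048-107760469, minus strand), was at 744, 598, 573 and 707 CPM untreated and 2182, 1902, 3057 and 3471 CPM at 6 h, a 4.05-fold rise. It was already abundant before treatment, and the treated libraries of replicates 3 and 4 were the higher ones. Csf2, the gene of GM-CSF, had no UMI in any untreated library and 51 over the 6 h libraries, where it stood at 7.11, 4.298, 10.2 and 12.04 CPM. This makes it at least 26.0-fold higher against a floor of 3 UMIs over the untreated group (adjusted p 3.93e-05). Lif, a cytokine of the interleukin 6 family, rose 9.65-fold from 7.84 ± 1.13 to 74.4 ± 51.6 CPM, and Il34, the second ligand of the Csf1 receptor, rose 3.76-fold. Of 24 cytokine receptors 8 rose and none fell (median log2 change 0.66), although 1 fell without 6 h replicate 2 and 2 fell with the block. Il1rl1, the receptor of interleukin 33, rose 3.55-fold from 125 ± 24.1 to 444 ± 131 CPM, Ifngr1 2.32-fold, Il15ra 2.93-fold and Il1rap, the shared chain of the interleukin 1 receptor family, 2.55-fold.

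Of 32 tested adhesion genes 9 rose and none fell, with a median log2 change of 0.28. The falls were 1 without 6 h replicate 2 and 1 with the block. Icam1, the ligand of leukocyte integrins (chr9:21015985-21028817, plus strand), was at 15.99, 29.3, 23.4 and 25.1 CPM untreated and 209, 339, 269.6 and 258 CPM at 6 h, a 11.5-fold rise that ran from 3.32 to 3.64 on the log2 scale over the 4 pairs. Vcam1, the ligand of the integrin VLA-4, rose 3.699-fold from 47.4 ± 13.5 to 175 ± 47.4 CPM. Madcam1, an addressin best known from gut vessels, had no UMI in the untreated libraries and 36 at 6 h, at least 18.4-fold higher against the floor of 3 UMIs over the group. Itga2, a collagen-binding integrin chain, was at 0, 0.322, 0 and 0.643 CPM untreated and 1.19, 0.955, 13.5 and 16.1 CPM at 6 h, so nearly all of its treated UMIs came from replicates 3 and 4.

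Growth factors rose in small number, and several had their highest treated levels in replicates 3 and 4. Of 27 tested, 6 rose and 1 fell (2 fell with the replicate number as a block), with a median log2 change of 0.20. Angptl4, a secreted inhibitor of lipoprotein lipase (chr17:33773750-33781830, minus strand), was at 5.71, 5.15, 11.5 and 18.01 CPM untreated and 79.4, 42.03, 382 and 347 CPM at 6 h, a log2 change of 4.50 ± 0.54. Pdgfb, a mitogen for mesenchymal cells, rose from 0.381, 1.29, 2.12 and 2.57 CPM to 10.7, 5.73, 51.5 and 67.7 CPM, and Hbegf, a ligand of the EGF receptor, from 14.1, 9.33, 18.3 and 31.5 CPM to 69.96, 23.4, 300.1 and 295 CPM. For all 3 the treated levels of replicates 3 and 4 were several times those of replicates 1 and 2. Their untreated levels were also higher in replicates 3 and 4, and all 3 genes rose in every pair. Vegfc, the lymphatic growth factor, rose 3.63-fold with replicate 1 the lowest at 6 h.

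Immediate-early transcription factors and the genes that damp ERK signalling also changed. Of 34 tested AP-1, EGR and related factors 9 rose and 1 fell (median log2 change 0.38), the fall being lost without any 1 of untreated replicates 1 to 3 or 6 h replicates 1 to 3 and joined by another with the block. The medians of this list by replicate pair were -0.14, 0.04, 0.93 and 0.70. Jun rose 3.09-fold from 83.6 ± 15.3 to 259 ± 58.6 CPM, with pairs between 1.54 and 1.70 on the log2 scale, and Junb rose 2.46-fold and Maff 2.96-fold. Egr2, a zinc finger factor, went from 4.57, 5.47, 3.397 and 6.43 CPM to 11.9, 20.5, 57.6 and 80.3 CPM, with replicates 3 and 4 the highest. Myc and Fosl1 rose by 1.29 and 1.69 on the log2 scale, while Fos had a difference of -0.78 (adjusted p 0.393). Of 20 ERK feedback genes 7 rose and 2 fell (4 without any 1 of untreated replicate 2 and 6 h replicates 3 and 4 for the rises, and 1 for the falls without any library but 6 h replicate 4). Their medians by replicate pair were 0.04, 0.05, 0.71 and 0.75. Dusp10, a phosphatase of p38 and JNK, rose 6.26-fold, and Errfi1, an inhibitor of the EGF receptor, rose 10.8-fold, again with replicates 3 and 4 at 6 h (45.1, 36.3, 309.5 and 332 CPM) far above replicates 1 and 2. Spry1, an inhibitor of receptor tyrosine kinase signalling, went the other way, from 158, 131, 158 and 169 CPM to 65.2, 74.03, 75.9 and 53.3 CPM, a log2 change of -1.20 ± 0.14 (adjusted p 8.86e-06).

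Of 10 tested genes of prostaglandin synthesis and of prostaglandin and bradykinin sensing 4 rose and none fell, with a median log2 change of 0.88. By replicate pair the medians were 0.21, 0.18, 1.35 and 1.19. Ptges, the terminal enzyme of prostaglandin E2 synthesis, was at 40.3, 31.2, 29.7 and 29.6 CPM untreated and 133, 86.4, 136 and 142 CPM at 6 h, a 3.77-fold rise. Ptgs2, the gene of cyclooxygenase-2, was at 11.4, 11.9, 12.7 and 19.9 CPM untreated and 14.2, 13.4, 94.8 and 137 CPM at 6 h. Replicates 1 and 2 hardly differed between groups, and the call was lost without 6 h replicate 4 (adjusted p 0.0589). Bdkrb1, the bradykinin receptor that is induced in inflamed tissue, was at 0, 0, 1.698 and 0 CPM untreated and 15.4, 5.73, 18.3 and 33.8 CPM at 6 h (log2 5.28 ± 0.75).

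Of 41 matrix proteases, plasminogen genes and inhibitors 8 rose and 1 fell (5 without any 1 of untreated replicates 1 and 3 for the rises, and 2 fell with the block). Mmp9, the gelatinase, was at 2.28, 8.69, 17.8 and 17.4 CPM untreated and 50.99, 125, 469 and 619 CPM at 6 h, a log2 change of 4.85 ± 0.67 with no overlap of the groups. Serpina3g rose 18.6-fold from 10.8 ± 8.35 to 189.6 ± 67.8 CPM, a value that is uncertain because the mouse Serpina3 genes are near-identical copies whose reads the counting could split. Serpinb2, the gene of plasminogen activator inhibitor 2, had 1 UMI over the untreated libraries and 172 over the 6 h libraries, all in replicates 3 and 4, which stood at 0, 0, 52.2 and 54.5 CPM in order. Adamts1, a protease of proteoglycans, was the member that fell, from 248 ± 95.5 to 94.9 ± 55.2 CPM. Structural matrix genes were mostly without a call: of 54 tested 1 rose (Col5a3, lost without any 1 of untreated replicates 1, 2 and 3 and 6 h replicates 3 and 4 (adjusted p 0.0642 to 0.164)). The median log2 change was 0.05, and with the replicate number as a block 3 rose.

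Interferon-linked genes and antigen presentation rose in part. Of 42 interferon-stimulated genes and GTPases 6 rose and none fell, with a median log2 change of 0.35, and the count was 2 without any 1 of untreated replicate 3 and 6 h replicates 2 and 3 and 3 without untreated replicate 4. Parp14 rose 2.95-fold from 23.4 ± 5.95 to 68.7 ± 28.96 CPM and Gbp2, a guanylate-binding protein with close paralogues that share reads, rose 3.503-fold. Of 20 MHC class I and peptide-loading genes 4 rose and none fell (2 without untreated replicate 4), and with the replicate number as a block 9 rose. Psmb10, a subunit of the immunoproteasome, went from 89.8, 108, 86.2 and 114 CPM to 228, 312, 179 and 155 CPM, and Tapbp, the gene of tapasin, rose 1.897-fold. Of 25 IRF, STAT, JAK and SOCS genes 4 rose and none fell, and 7 rose with the block. Irf1, an activator of interferon genes, rose 2.17-fold and Irf5 3.96-fold, with treated levels of 11.9, 16.2, 43.4 and 42.4 CPM for Irf5 and 139.9, 169, 79.9 and 72.3 CPM for Irf1. Replicates 3 and 4 were the high ones for the first and the low ones for the second.

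**Figure D3:**
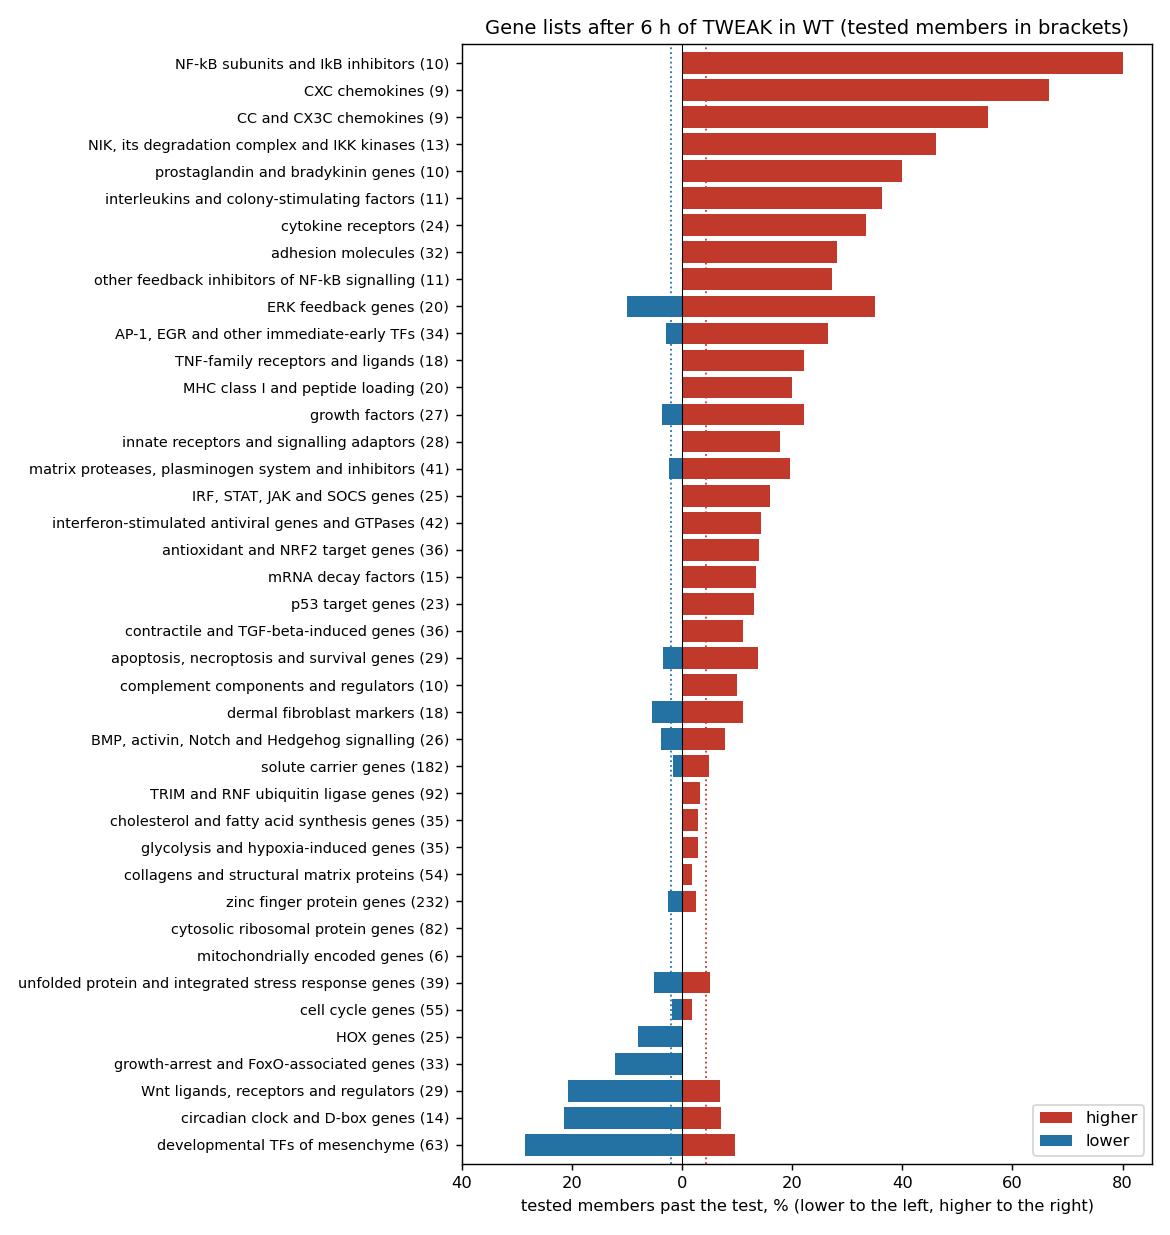
Share of the tested members of each gene list that rose (red, to the right) or fell (blue, to the left) after 6 h of TWEAK, in per cent, with the number tested in brackets. Dotted lines mark the shares over all tested genes, 4.35% higher and 2.06% lower, and the NF-kB subunits and IkB inhibitors (8 of 10) and the developmental factors of mesenchyme (18 of 63 lower) stand at the ends. The lists were chosen with earlier results of these data known, so the shares are a description.

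Of 29 apoptosis and survival genes 4 rose and 1 fell (0 without any 1 of untreated replicates 3 and 4 and 6 h replicates 3 and 4 and 2 without 6 h replicate 2 for the fall, and 2 fell with the replicate number as a block). Casp8, the initiator caspase of death receptors, rose 2.38-fold from 25.5 ± 3.12 to 60.1 ± 8.56 CPM, and Cflar, which encodes its inhibitor cFLIP, rose 1.87-fold from 62.6 ± 12.2 to 118 ± 11.3 CPM. Gadd45b, a stress-induced regulator of kinase signalling, rose 1.91-fold, and Pmaip1, which encodes the death-promoting NOXA, fell by 0.78 on the log2 scale, a call lost without any 1 of untreated replicates 3 and 4 and 6 h replicates 3 and 4 (adjusted p 0.0605 to 0.0941). Of 36 antioxidant genes 5 rose and none fell. The rises stayed at 5 with any 1 library left out, and 1 fell with the block. Sod2, the mitochondrial superoxide dismutase, rose 2.002-fold from 195 ± 34.9 to 390.1 ± 113 CPM, and Mt2, a metallothionein, went from 381, 477, 589 and 492 CPM to 1699, 1375, 894 and 934 CPM, with replicates 1 and 2 the highest at 6 h. Sqstm1, the autophagy receptor p62, rose 1.86-fold, to 1420.4 ± 370.0 CPM.

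Of 63 tested developmental transcription factors of mesenchyme 18 fell and 6 rose, with a median log2 change of -0.44, and 14 to 20 fell with any 1 library left out. The number that rose was 2 without any 1 of untreated replicates 1 and 2 and 6 h replicate 3, 3 without untreated replicate 4 and 1 without 6 h replicate 4. Osr1, a zinc finger factor of connective tissue progenitors (chr12:9570116-9581500, plus strand), was at 117, 179.5, 269 and 203 CPM untreated and 20.2, 41.6, 31.8 and 17.2 CPM at 6 h, a 6.74-fold lower level (log2 -2.75 ± 0.24, adjusted p 6.70e-08). Every treated library lay below every untreated one, and the fall by pair ran from -2.09 to -3.50. Its relative Osr2 fell from 23.9 ± 14.4 to 3.202 ± 3.07 CPM. Twist1, a basic helix-loop-helix factor of mesenchymal identity (chr12:33957671-33959829, plus strand), went from 175, 217, 265 and 218 CPM to 61.7, 101, 80.6 and 79.1 CPM (log2 -1.42 ± 0.16). Irx5 and Meis2, both homeobox genes, fell by 1.69 and 1.35 on the log2 scale. Outside the list, Zfp503, a zinc finger gene, had tight groups at 160.2, 146, 155 and 154 CPM and 50.99, 63.5, 51.5 and 50.5 CPM (log2 -1.50 ± 0.12, adjusted p 2.06e-08), and Nr2f1, a nuclear receptor, fell from 45.7 ± 26.04 to 12.03 ± 2.68 CPM.

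Most HOX genes had log2 values below 0, with few calls. Of 25 tested, 2 fell and none rose, but 24 of the 25 log2 values were below 0, and the HOX median was -0.62. Above 0 was 1 of the 25 values, against 5500 of 11337 over all tested genes. The medians by replicate pair were -0.63, -0.66, -0.30 and -0.53. Hoxa2 was at 4.57, 12.2, 22.1 and 12.2 CPM untreated and 3.56, 5.25, 1.35 and 2.87 CPM at 6 h, and Hoxa5 at 6.47, 5.15, 4.25 and 7.72 and 4.74, 1.91, 0.677 and 0.574 CPM. The groups overlapped for both. The call of Hoxa2 was lost without any 1 of untreated replicates 2 and 3 and 6 h replicates 3 and 4 (adjusted p 0.0515 to 0.105), and that of Hoxa5 without any 1 of untreated replicates 1, 2 and 4 and 6 h replicates 2, 3 and 4 (adjusted p 0.0587 to 0.157). The number of HOX genes that fell was 1 without any 1 of untreated replicate 1 and 6 h replicate 2, 0 without any 1 of untreated replicate 2 and 6 h replicates 3 and 4 and 4 without untreated replicate 3, and it was 7 with the replicate number as a block.

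**Figure D4:**
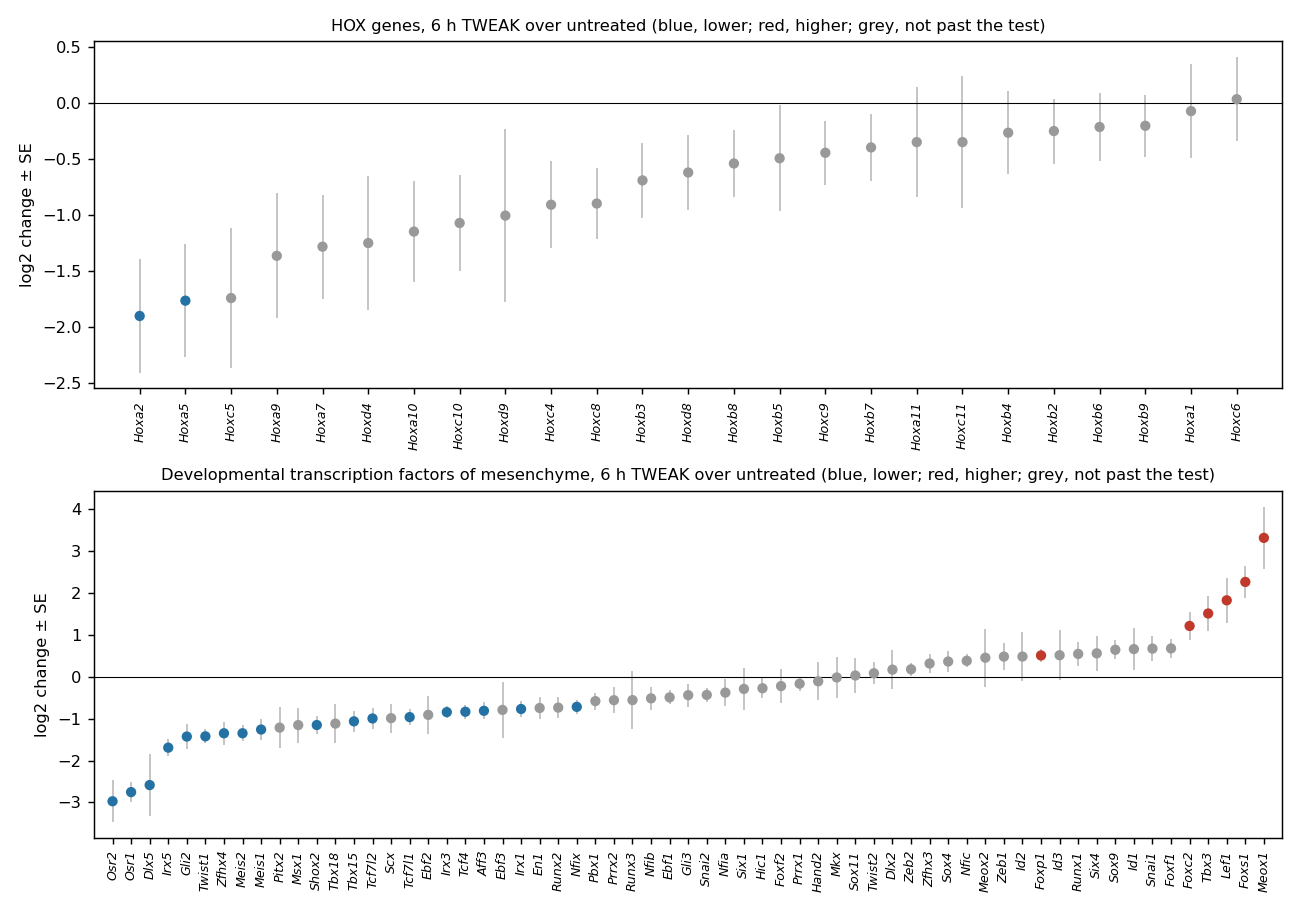
Log2 change ± SE of 25 HOX genes (top) and 63 developmental transcription factors of mesenchyme (bottom), in order of size, coloured by whether they passed the test. In the top panel 24 of 25 values lie below 0 with 2 past the test, and in the bottom panel 18 genes passed below 0 and 6 above.

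Wnt genes, clock genes and genes of growth arrest fell in smaller numbers. Of 29 Wnt ligands, receptors and regulators 6 fell and 2 rose (median log2 change -0.40, with 4 to 8 falling when 1 library was left out, and 1 without any 1 of untreated replicates 1, 2 and 3 and 6 h replicates 3 and 4 for the rises). Fzd2, a Wnt receptor, went from 77.7, 95.5, 90.01 and 74.6 CPM to 46.2, 40.6, 27.8 and 32.1 CPM, Fzd1 fell 1.63-fold and Wnt5a, a ligand of non-canonical Wnt signalling, fell 1.61-fold, each with no overlap of the groups. Wnt11 rose, from 4.57, 2.25, 1.698 and 3.86 CPM to 11.9, 6.21, 65.03 and 52.2 CPM, most in replicates 3 and 4. Of 14 clock genes 3 fell and 1 rose (1 without any 1 of untreated replicate 1 and 6 h replicates 2, 3 and 4 for the falls, and 2 rose with the block). Dbp, an output factor of the circadian clock, was at 52.5, 94.6, 63.7 and 49.5 CPM untreated and 18.97, 24.4, 2.71 and 5.74 CPM at 6 h, a log2 change of -2.34 ± 0.38. The smaller fall of Per1 was lost without any 1 of untreated replicates 1, 3 and 4 and 6 h replicates 1, 2, 3 and 4 (adjusted p 0.05495 to 0.1304) and that of Nr1d1 without any 1 of untreated replicates 1 and 2 and 6 h replicates 2, 3 and 4 (adjusted p 0.0506 to 0.148). Bhlhe40, a repressor of the clock, rose 1.72-fold. The untreated and treated libraries were labelled 0 h and 6 h, and the part of the hour of collection in these clock values was not tested. Of 33 growth-arrest genes 4 fell and none rose (1 without any 1 of untreated replicate 2 and 6 h replicate 4 and 2 without 6 h replicate 3, and 8 with the block), with Gas1, a membrane protein raised in quiescent cells, going from 112 ± 37.1 to 35.2 ± 15.2 CPM.

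Further named genes with falls had a range of roles. Ephb3, a receptor of ephrin B ligands (chr16:21204755-21223305, plus strand), went from 98.97, 104, 84.9 and 89.4 CPM to 16.6, 35.3, 16.9 and 18.9 CPM, a 4.14-fold lower level (adjusted p 3.54e-07). Tbxa2r, the thromboxane receptor, went from 152, 128, 71.8 and 64.3 CPM to 43.9, 37.3, 15.6 and 14.9 CPM, with replicates 1 and 2 above replicates 3 and 4 in both groups. Pdgfrb, the receptor of PDGF-BB and a fibroblast marker, fell 1.797-fold from 407 ± 25.7 to 227 ± 47.4 CPM, while the gene of its ligand, Pdgfb, rose as given above. Lmcd1, a LIM domain protein, fell 4.84-fold, and Artn, which encodes the neurotrophic factor artemin, went from 11.4, 10.9, 8.92 and 9.004 CPM to 0, 3.34, 4.06 and 2.87 CPM. Nfatc4, a calcium-regulated transcription factor, fell 2.23-fold.

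Ribosomal protein, cell cycle and lipid synthesis genes had few calls in the main fit, where 4.35% of all tested genes rose and 2.06% fell. Contractile genes had a larger share of rises than all genes. The log2 values of 82 cytosolic ribosomal protein genes ran from -0.35 to 0.62, with a median of 0.03. Of 55 cell cycle genes 1 rose (Cdk6, 2.82-fold, from 41.9 ± 12.8 to 117 ± 24.1 CPM) and 1 fell (E2f1, 1.70-fold), although 49 of 55 values were below 0 and the median was -0.71. The call of E2f1 was lost in fits of the 8 libraries compared, without the block (edgeR, adjusted p 0.133) and with it (adjusted p 0.0588). The cell cycle medians by replicate pair were 0.01, 0.01, -0.98 and -0.94. With the replicate number as a block 22 of these genes fell, against 556 of all 11337 tested genes. The falls were 3 without untreated replicate 1 and 2 without any 1 of untreated replicate 2 and 6 h replicate 3, and the rises 2 without 6 h replicate 2. Of 35 cholesterol and fatty acid synthesis genes 1 rose and none fell, with a median of -0.35. The falls were 1 without 6 h replicate 2, and with the block 2 rose and 9 fell. Of 36 contractile and TGF-beta-induced genes 4 rose and none fell, with a median of -0.02 (the rises were 1 without any 1 of untreated replicates 2 and 3 and 6 h replicates 3 and 4), and with the block 7 rose and 5 fell. The 4 include Ccn2, which encodes the matrix-associated protein CTGF, at 398, 140.3, 249 and 369 CPM untreated and 374, 119.9, 2121 and 2435 CPM at 6 h. Its groups overlapped, with replicates 3 and 4 far above the others at 6 h, and its call was lost without any 1 of untreated replicates 2 and 3 and 6 h replicates 3 and 4 (adjusted p 0.0551 to 0.109).

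The 4 replicate pairs did not respond alike for every gene. Of the 493 genes that rose, 450 did so in all 4 pairs, 34 in 3 pairs and 9 in 2, and of the 234 that fell 226 did so in all 4. In 58 of the rising genes (11.8%) the change in each of pairs 3 and 4 exceeded that in each of pairs 1 and 2 by at least 1 on the log2 scale. The reverse order held for 4 genes, and over all tested genes these shares were 1.81% and 1.45%. The 58 include Serpinb2, Ccn2, Inhba, Ptgs2, Plaur, Wnt11, Sema7a, Errfi1 and Egr2. Inhba, the gene of the activin A subunit, was at 422, 236, 327 and 435 CPM untreated and 177, 227, 2448 and 2931 CPM at 6 h, with changes by pair of -1.25, -0.06, 2.90 and 2.75, and its call was lost without any 1 of untreated replicates 1, 2, 3 and 4 and 6 h replicates 3 and 4 (adjusted p 0.0551 to 0.179) and with the replicate number as a block (adjusted p 0.0571 in 24 libraries and 0.349 in the 8). Tnfrsf12a had the same order of pairs, at -0.14, 0.26, 1.68 and 1.48. By contrast the changes by pair were 2.34, 2.40, 2.38 and 2.50 for Nfkb2, 2.34, 2.59, 2.46 and 2.43 for Birc3 and 1.70, 1.54, 1.60 and 1.61 for Jun. In 85 rising genes (17.2%), all pairs lay within 0.5 of each other, a share close to the 19.7% of all tested genes. The labels give no batch that parts replicates 1 and 2 from 3 and 4, RNA was prepared with either of 2 kits without saying which sample had which. The part of either in this difference was not tested.

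**Figure D5:**
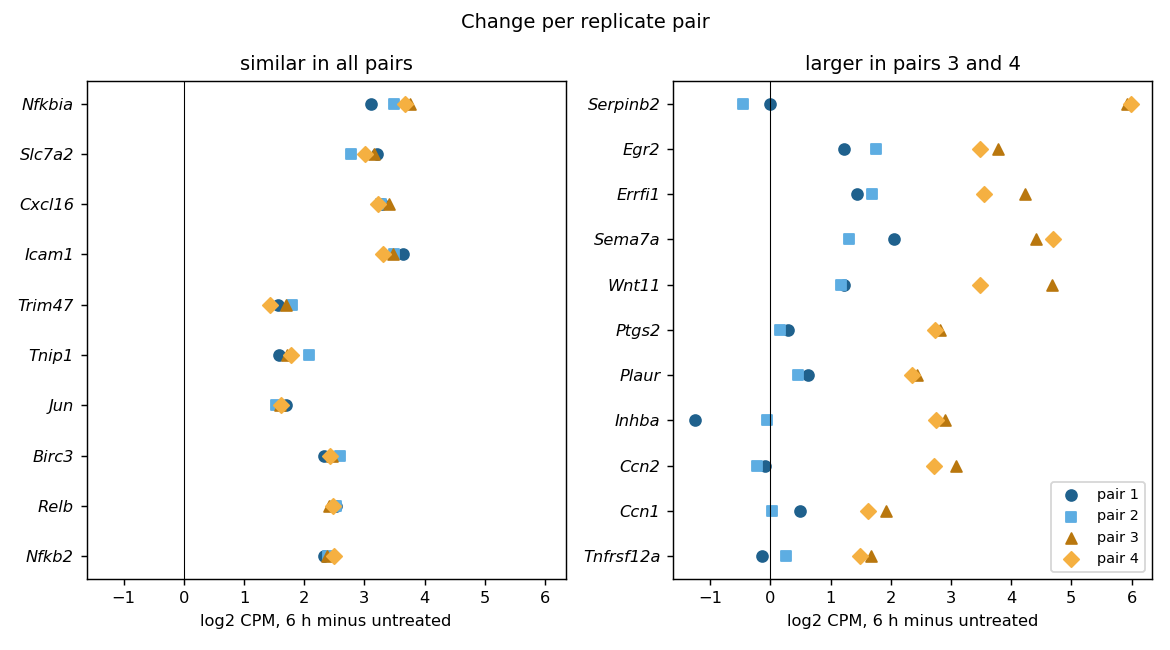
Log2 CPM at 6 h minus untreated in each of the 4 replicate pairs, for genes with like changes in all pairs (left) and genes with larger changes in pairs 3 and 4 (right), chosen for those patterns. On the left the pairs nearly coincide, as for Nfkb2 between 2.34 and 2.50, and on the right pairs 1 and 2 lie near 0 or well below pairs 3 and 4, as for Inhba between -1.25 and 2.90.

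Each replicate pair was also left out of the fit and then looked at. Without pair 1, 485 genes rose, of which 82.7% were also higher at 6 h in pair 1 itself, with a median log2 change there of 0.65 against 1.31 in the fit. Without pair 2 the values were 451 genes, 90.5%, 0.70 and 1.32. Without pair 3, 258 genes rose and 97.3% were higher in pair 3 (median 1.43 there and 1.501 in the fit), and without pair 4, 260 of the genes tested throughout rose and 97.3% were higher in pair 4 (median 1.38 and 1.42). Over all tested genes 47.3% to 49.4% were higher in the pair left out. Of the genes that fell in these fits, 86.5% to 97.0% were lower in the pair left out.

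For the core NF-kB genes the 6 h level can be set beside those of the other groups of the series. Between 24 h and 6 h of TWEAK in wild-type cells 2.23% of all genes were lower at 24 h, and of the 13 pathway genes Nfkb1 (log2 -0.80, adjusted p 0.00459), Relb (-0.54, adjusted p 0.0269) and Tnfaip3 (-0.96, adjusted p 0.0296) were among them. Nfkb2 was at 542.3 ± 58.3 CPM at 6 h and 531.3 ± 86.4 CPM at 24 h (SD, n = 4). The 6 h change of Nfkb2 was smaller in NIK knockout than in wild-type cells by 1.26 on the log2 scale (difference -1.26 ± 0.24, adjusted p 0.0448) and that of Nfkbie by 2.57 (difference -2.57 ± 0.49, adjusted p 0.0422). By this test 0.0706% of all genes had a lower log2 change in the knockout, which would include genes that fell more there. The differences of Nfkbia (-1.72 ± 0.40) and Tnfaip3 (-2.92 ± 0.68) were larger than that of Nfkb2 but did not pass the test (adjusted p 0.202 for each). In NIK knockout cells, 2 libraries a group, Nfkbie was at 6.68 ± 1.53 CPM untreated and 20.6 ± 1.495 CPM at 6 h, and in NIK X mut cells at 7.502 ± 0.0316 and 65.5 ± 1.23 CPM (SD, n = 2). The difference of the NIK X mut change of Nfkbie from that of wild type was -1.04 ± 0.41 on the log2 scale and did not pass the test. These comparisons share the wild-type libraries with the one described above.

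The authors' deposited table of the same comparison lists 504 genes as higher and 227 as lower at an adjusted p under 0.05, of which 467 and 203 were also past the test here in the same direction.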

How the data were processed

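Bulk MARS-seq libraries were made from 50 ng of RNA each. The deposited table holds whole UMI counts per gene for 24 libraries, which the authors obtained, per the submitters' processing notes, with cutadapt, STAR 2.7.10a and HTSeq on GRCm38/mm10 and compared with DESeq2. The strand setting of the counting is not given in the sources used here. The authors' deposited log2 fold changes and adjusted p-values were used for counts of shared calls alone.

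Counts were fitted with edgeR 4.0.16 in R 4.3.3 (TMM, filterByExpr by group, 9 groups, quasi-likelihood F test), with Benjamini-Hochberg adjustment over all 11337 tested genes and a threshold of 0.05. Every gene of the table had at least 6 UMIs over the 24 libraries. The standard error is the log2 change divided by the square root of F. Log2 CPM by pair used a prior count of 2. DESeq2 1.42.0 was an alternative. The fit was tested on simulated counts. Intervals at 95% and floors of 3 UMIs cover counting error only. Total UMIs per library, from 889863 upwards, limit the precision of genes with few UMIs.

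Named genes were 13 pathway genes, the 20 largest rises and falls without overlap of libraries, the 12 largest gains and losses of CPM, the 12 smallest p in each direction (all reaching 5 CPM or more in 1 of the groups), and up to 4 members of each of 47 gene lists. Members named beside these (Bcl3, Nfkbib, Nfkbiz, Birc2, Tank, Cxcl12, Myc, Fosl1, Fos, Krt10, Fap and Lum) were chosen after their values were seen. A named gene that is withheld is not reported here. The lists, rules and comparison were chosen with earlier results of these data known.

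Same-numbered untreated and 6 h libraries were taken as pairs: over 7289 genes with mean log2 CPM above 4, deviations from the group means correlated at 0.467, 0.496, 0.328 and 0.470 for numbers 1 to 4. Between different numbers they ran from -0.428 to 0.441. Untreated 4 with 6 h 3 (0.441) exceeded 3 with 3, so the values do not tell number 3 from number 4. The pairing comes from these correlations, since the labels give numbers without saying what they mark. Promoter sequences are from RefSeq (GRCm38.p6), and gene positions from GENCODE on GRCm38.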

Additional observations from a re-analysis of the deposited data

Results flagged for a closer look

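Among 344 groups of 4 libraries tested, 1 for each named gene and condition, 14 held a library with a gap to its nearest neighbour that was large for the range of the group. Chance gives about 1 in 20 groups, and 14 of 344 is not above that share. The libraries are therefore listed as a description only. In the untreated group, replicate 1 stood apart for Nfkb2 at 122.9 CPM (the others between 94.3 and 95.2), for Myd88 at 42.3 CPM (49.5 to 50.5) and for Jak2 at 30.8 CPM (37.3 to 38.2). Untreated replicate 2 stood apart for Trim47, a ubiquitin ligase gene, at 92.6 CPM (108.0 to 111.1), and was the one untreated library with a UMI of Serpinb2, at 0.322 CPM. Untreated replicate 3 was the one with UMIs of Spib, a transcription factor gene of the ETS family, at 0.425 CPM and of Bdkrb1 at 1.70 CPM. For Serpinb2, Spib and Bdkrb1 the other untreated libraries were at 0 CPM, so any UMI in a single library is flagged by this rule. Untreated replicate 4 was low for Cxcl10 at 18.01 CPM (31.0 to 33.1). At 6 h, replicate 1 was low for Artn at 0 CPM (2.87 to 4.06) and for Mxd4, a gene of the MAX network, at 128.1 CPM (161.7 to 169.3). Replicate 2 at 6 h was high for Tapbp at 463.7 CPM (298.8 to 305.9) and for Zfp503 at 63.5 CPM (50.5 to 51.5), and low for Il34 at 7.16 CPM (13.0 to 13.8) and for Ptges at 86.4 CPM (132.8 to 142.2).

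The change of 2 pathway genes at 6 h differed between genotypes by the test of the difference itself. It was lower in NIK knockout than in wild-type cells by a log2 difference of -1.26 for Nfkb2 and -2.57 for Nfkbie (edgeR, adjusted p 0.0448 and 0.0422).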

How the results depend on the processing

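The number of genes past the test depended on which libraries entered the fit. With all libraries 727 genes passed (493 higher, 234 lower), and the counts with RLE size factors (724), no filter on low counts (704), DESeq2 (740), the replicate block in the 8 libraries (660) and both libraries of replicate 1 (700) or 2 (655) left out were within 1.5 times that. With the replicate number as a block in all 24 libraries 1314 genes passed, 758 higher and 556 lower, and 724 of the 727 were among them. With replicates 1 and 2 and replicates 3 and 4 as separate groups 1271 passed, 559 of them lower. The 12 wild-type libraries alone gave 335 (247 higher, 88 lower) and the 8 alone 223 (176 and 47). Leaving out both libraries of replicate 3 gave 369 (258 and 111), and of replicate 4 gave 362 (262 and 100). With 1 library left out the total ran from 428 to 938, the rises from 312 to 619 and the falls from 116 to 319. The cause of these shifts was not tested. Of 3377 combinations of named gene and setting, 2907 stayed on the same side of the threshold, 463 lost it and 7, of Ikbkb and Tnfrsf12a, gained it. None was counted as a reversal of a call. The log2 difference of Rel, which did not pass the test, ran from -0.09 to 0.24 with 1 library left out. Of 167 named genes past the test, 121 kept the call with each of the 8 libraries left out in turn. The call was lost for 49 with the 12 wild-type libraries alone, for 55 with the 8 alone and for 74 in at least 1 setting. With the 8 alone and no block, those lost include Adamts1 (edgeR, adjusted p 0.121), Ch25h (0.0840) and C3 (0.0703). E2f1 (0.133), Gadd45b (0.107), Bhlhe40 (0.0985), Cxcl1 (0.0769) and Irf1 (0.0616) were lost there too. Of all 727 genes past the test, 221 were also called in that fit of the 8. The replicate block in 24 libraries changed the calls of Inhba, Ikbkb and Tnfrsf12a and of no other named gene. Depth limits the genes near the floor: 108 of the 493 rising genes had an untreated mean under 5 CPM.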

Other observations

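Single genes outside the signalling and patterning groups also changed. The solute carrier, TRIM and RNF, and zinc finger lists had shares near or below those of all genes (4.35% higher and 2.06% lower). Of 182 tested solute carrier genes 9 rose and 3 fell, close to the shares of all genes. The falls were 1 without any 1 of untreated replicate 2 and 6 h replicates 3 and 4 and 6 without 6 h replicate 1. With the replicate number as a block 14 solute carrier genes rose and 7 fell, in a fit where 758 of all 11337 tested genes rose and 556 fell. Slc7a2, a carrier of arginine and lysine, rose from 1.14, 4.504, 2.55 and 3.22 CPM to 17.8, 35.8, 29.8 and 32.1 CPM, Slc20a1, a phosphate carrier, from 182, 98.1, 92.6 and 107 CPM to 674, 557, 589 and 521 CPM, and Slc11a2, an iron carrier, from 60.5, 62.1, 50.1 and 63.03 CPM to 116, 121, 102 and 96.4 CPM, with the treated libraries above the untreated ones in each case. Slc15a3, a carrier of histidine and peptides on endosomes, had 2 UMIs over the untreated and 57 over the 6 h libraries, a ratio of 43.6 (exact 95% interval 11.5 to 368.6, counting error only). Of 92 TRIM and RNF genes 3 rose and none fell (for the falls, 1 without any 1 of 6 h replicates 1 and 2 and 1 with the block). Those that rose include Rnf19b, from 149.6, 129, 133 and 152 CPM to 428, 383, 495 and 531 CPM, and Trim47, from 106 ± 8.79 to 327 ± 29.2 CPM (SD, n = 4). Of 232 zinc finger genes named Zfp, Zkscan or Zscan 6 rose and 6 fell (1 without any 1 of untreated replicate 2 and 6 h replicates 3 and 4 and 3 without untreated replicate 3 for the rises, 3 without any 1 of untreated replicate 2 and 6 h replicate 3 for the falls).

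The rise of Spib was uneven, at 14.2, 26.7, 2.03 and 0.574 CPM in 6 h replicates 1 to 4, with 1 UMI over the untreated libraries. Its treated levels were high in replicates 1 and 2, the opposite order to Serpinb2. C3, the central complement component, went from 1.14, 2.57, 5.09 and 8.36 CPM to 4.74, 35.8, 14.9 and 20.6 CPM and was the 1 of 10 tested complement genes to rise. Without 6 h replicate 1, 2 complement genes rose and 1 fell, and with the block 3 rose and 1 fell. Ch25h, which makes an oxysterol, was the sterol gene that rose, from 19.4, 37.3, 55.6 and 50.8 CPM to 40.3, 88.4, 229.6 and 249 CPM. Of 39 genes of the unfolded protein and integrated stress responses 2 rose and 2 fell. The rises were 0 without any 1 of untreated replicate 2 and 6 h replicates 3 and 4 and 1 without any 1 of untreated replicates 3 and 4 and 6 h replicate 2. The 2 that fell were Trib3, from 189 ± 19.4 to 122 ± 24.6 CPM, a call lost without any 1 of untreated replicates 1 and 2 and 6 h replicates 3 and 4 (adjusted p 0.0574 to 0.108), and Ddit3, which encodes CHOP, from 287 ± 18.4 to 204 ± 40.7 CPM, a call lost without any 1 of untreated replicates 1, 2, 3 and 4 and 6 h replicates 3 and 4 (adjusted p 0.0509 to 0.159). Ivl, an envelope gene of keratinocytes, was at 0, 0.322, 0.849 and 1.29 CPM untreated and 0, 0, 16.3 and 9.75 CPM at 6 h, a call lost without any 1 of untreated replicates 1, 2, 3 and 4 and 6 h replicates 3 and 4 (adjusted p 0.0529 to 0.261), while Krt10 had a log2 difference of 0.17 and did not pass the test.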
